A study of Mus musculus with 120 samples.

Results

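The comparison described here is between single mouse group 2 innate lymphoid cells (ILC2s) caught 30 min after each began to secrete interleukin (IL) 5 and ILC2s of the same experiment that secreted no detectable IL-5. Its members are the cells labelled with the IL5 index, which means that live imaging of IL-5 secretion chose the cell. They are 11 transition-state cells of the 30 min time and 11 silent cells, of 120 cells in the series. Cells under 10000 gene reads were left out. This removed 1 cell with 73 reads at 30 min and 1 silent cell with 2152 reads, both of the second of 2 dates given in the titles, so that 20 cells remained, 5 of each state on each date.

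Every cell came from mesentery pooled from 20 wildtype C57BL/6 mice, for which the methods name retired female breeders as the usual source. The cells had been sorted as lineage-negative, c-Kit+ Sca-1+ ILC2s and kept in culture for months, and both groups were given IL-2 and IL-33. No age in weeks, animal or culture is given for a single cell. The 30 min cells were each picked 30 min after their own onset, whereas silent cells were picked at 1 fixed late time of the stimulation. State and time since the stimulus therefore cannot be told apart. Libraries were pooled in sets of 5 or 6 before tagmentation, which is the number of cells of 1 state on 1 date, so pool and state may coincide and then cannot be told apart either.

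ILC2s are tissue lymphocytes without antigen receptors that answer alarmins such as IL-33, which signals through the receptor chain encoded by Il1rl1 to NF-kB and MAP kinases. IL-2 acts through the receptor whose alpha chain Il2ra encodes. Activated ILC2s release type 2 cytokines, above all IL-5, which sustains eosinophils, and IL-13, which acts on epithelium and smooth muscle, and in some settings IL-9, IL-6 and GM-CSF (Csf2). Only a fraction of stimulated cells secretes at a given moment, and onset differs from cell to cell.

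The values are sums of reads over the cells of a group, given as counts per 1000000 gene reads (CPM), and the log2 ratio of the 30 min sum over the silent sum. With no animal or culture named, the cells of a state count as a single sample, so no p-value can be given. CPM is relative: a higher share of a cell's reads and a lower total of other RNA cannot be told apart. Intervals given with a ratio are exact binomial 95% intervals of the split of reads, and they cover counting error only, since reads carry no molecular identifiers. The spread of cells is given by the lowest, median and highest cell. Depth was 231240 to 464846 gene reads per cell at 30 min and 175331 to 404712 in silent cells, and the median over the 20 cells of the level that a single read represents was 3.02 CPM. After thinning each cell to 150000 reads, the median cell held 2533.5 genes at 30 min (2223 to 3258) and 2712 when silent (1999 to 3618). Of 14 ILC2 marker genes, 12 averaged 50 CPM or more over both groups, among them Gata3, Rora, Il1rl1, Kit and Ly6a, the gene of Sca-1. The T cell genes Cd3d, Cd3e and Trac had 0 reads in all 20 cells, as had 8 of the 12 T cell markers, whose sum was 4.32 to 1570 CPM per cell at 30 min and 3.35 to 1677 CPM in silent cells, mostly from Trbc2. All 8 mast cell and basophil markers and all 9 markers of NK cells and other ILCs had 0 reads. Of the other lists, 7 of 8 B cell, 11 of 12 myeloid and 9 of 10 stromal markers had 0 reads, and the summed B cell and myeloid levels reached at most 265 and 276 CPM in a cell at 30 min and 200 and 140 CPM in a silent cell.

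Among the silent libraries, 1 held a high level of Il5 mRNA, whereas the label reports secretion of the IL-5 protein. Silent cell 6, of the second date, held Il5 at 6576 CPM, above 7 of the 10 cells at 30 min, and the next silent cell held 389 CPM. It also had the highest silent levels of Il13 (5162 CPM), Il2ra (2772 CPM) and Sqstm1 (1899 CPM), and it was the only silent cell with Irf8 reads (183 CPM). Among the 10 silent cells it also had the lowest depth (175331 gene reads), the lowest share of alignments in genes (58.3%), and the highest shares in no feature (12.6%) and of mitochondrial reads (2.76%). It was kept, as its label states its group, and values without it are given where they move the ratio of a gene below by over 1.5-fold.

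The starts of the genes for IL-5, IL-13 and IL-9 are shown first. Il5 is the index of the comparison, and Il13 and Il9 are other type 2 cytokine genes described below. The start of Il4, also a type 2 cytokine gene, is not shown. Il5 and Il13 lie on chromosome 11 with Il4 and Csf2, and Il9 lies on chromosome 13. Each run is the 250 bases before the RefSeq start of the gene (GRCm38.p6), 5′ to 3′ on the gene's strand. Capitals mark a match to a motif of NF-kB (GGANNTTCC), AP-1 (TGANTCA) or CRE (TGACGTCA), searched on both strands.
Il5, chr11:53720544-53720793, + strand: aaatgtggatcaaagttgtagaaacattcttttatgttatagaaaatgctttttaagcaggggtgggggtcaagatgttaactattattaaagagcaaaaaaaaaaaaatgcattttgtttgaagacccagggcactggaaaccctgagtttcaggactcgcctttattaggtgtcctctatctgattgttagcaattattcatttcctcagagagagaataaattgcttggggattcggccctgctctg
Il13, chr11:53634703-53634952, - strand: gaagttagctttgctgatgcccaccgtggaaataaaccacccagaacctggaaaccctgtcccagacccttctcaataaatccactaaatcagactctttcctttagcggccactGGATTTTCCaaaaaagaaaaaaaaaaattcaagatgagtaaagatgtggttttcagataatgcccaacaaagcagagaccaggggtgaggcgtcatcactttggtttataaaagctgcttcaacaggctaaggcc
Il9, chr13:56482258-56482507, - strand: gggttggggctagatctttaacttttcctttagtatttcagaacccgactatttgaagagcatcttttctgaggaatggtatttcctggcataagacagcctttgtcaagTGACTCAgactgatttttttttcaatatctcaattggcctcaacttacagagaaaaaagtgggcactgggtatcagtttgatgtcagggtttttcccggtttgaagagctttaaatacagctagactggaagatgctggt
The Il13 run holds 1 NF-kB match, 135 to 127 bases before the start, the Il9 run holds 1 AP-1 match, 140 to 134 bases before it, and these letters do not occur in the Il5 run.

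Il5 mRNA was set beside the labels, which rest on secreted IL-5 protein and not on RNA. All 10 cells at 30 min held Il5 reads, with a lowest level of 316 CPM, a median of 3661 CPM and a highest of 11742 CPM. In silent cells, 9 of 10 held reads, with a lowest of 0, a median of 63.6 CPM and a highest of 6576 CPM. The groups overlapped through silent cell 6 and through the lowest 30 min cell, which lay below the silent cells at 352 CPM and 389 CPM. Pooled, Il5 (ENSMUSG00000036117) stood at 4602 CPM (4532 to 4673, exact Poisson 95% interval) against 482 CPM (457 to 507), a log2 ratio of 3.26 (3.18 to 3.33). On the first date every 30 min cell lay above every silent cell, with 766 to 8072 CPM against 2.79 to 389 CPM, and the log2 ratio was 5.30. On the second date, which holds silent cell 6, the ranges were 316 to 11742 CPM and 0 to 6576 CPM, and the log2 ratio was 2.23. Without silent cell 6 the pooled log2 ratio was 5.36.

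Across all genes, 2702 averaged 50 CPM or more over both groups and were tested against a rule of size. A gene was called higher when its log2 ratio was at least 2, and at least 1 on each date and on leaving out any 1 cell, and lower likewise with the signs turned. By this rule 129 genes were higher at 30 min (4.77% of those tested) and 89 were lower (3.29%), together 8.07%. The log2 limit alone, without the conditions on dates and cells, was passed by 6.66% in the higher and 5.18% in the lower direction.

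Among the other cytokines, Il13 was not far enough apart to be called. It had reads in all 10 cells at 30 min (154 to 6480 CPM, median 1567) and in 8 of 10 silent cells (0 to 5162 CPM, median 232). Its log2 ratio of 1.60 (1.53 to 1.67) came mainly from the first date, with 3.09 there and 0.36 on the second, and it was 2.44 without silent cell 6. Csf2, encoding GM-CSF, was as abundant in silent cells as at onset. Its median was 4077 CPM in both groups, its range 15.1 to 47310 CPM at 30 min and 25.8 to 25975 CPM in silent cells, and its log2 ratio -0.14 (-0.17 to -0.12). Leaving out 1 cell moved that ratio between -0.87 and 0.27, so its sign rests on single cells. Il4 had a log2 ratio of -0.56 with opposite signs on the dates (-1.37 and 1.50) and a range on leaving out 1 cell from -1.07 (without 30 min cell 8) to 0.27 (without silent cell 5), and Il3 had 0 reads in both groups.

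Il9 showed the largest ratio of the genes tested, carried by 2 cells. It stood at 5412 CPM pooled at 30 min against 3.26 CPM in silent cells (19220 reads against 10), a log2 ratio of 10.70 (9.82 to 11.76). Cell 8 held 39596 CPM and cell 3 held 11854 CPM, together 99.3% of the reads. The other 8 cells at 30 min all had Il9 reads, at 6.64 to 34.6 CPM on the first date and 40.9 to 96.4 CPM on the second, with a median of 37.7 CPM. In silent cells, 3 of 10 had reads, up to 23.9 CPM. On leaving out any 1 cell the log2 ratio ran from 8.54 (without 30 min cell 8) to 12.26 (without silent cell 9). Without the 2 high cells it was 3.75 (2.82 to 4.84). Each date's set of 30 min libraries held 1 of the 2 high cells, and the part of shared pools in the low levels was not tested.

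Il6 (interleukin 6) was called higher, at 322 CPM against 36.6 CPM with a log2 ratio of 3.14 (2.86 to 3.43). Reads were found in 7 of 10 cells at 30 min, up to 1064 CPM, and in 4 of 10 silent cells, up to 203 CPM, so the groups overlapped widely, and without silent cell 1 the ratio was 4.29. Lta, encoding lymphotoxin alpha, was also called higher with a log2 ratio of 2.84 (2.48 to 3.23), on 5 and 2 cells with reads and with a range on leaving out 1 cell from 2.08 (without 30 min cell 2) to 5.46 (without silent cell 4). Of 26 cytokine genes listed, 10 averaged 50 CPM or more, 4 of them (Il5, Il9, Il6 and Lta) were called higher (beside 4.77% of all genes tested) and none lower, and the median log2 ratio of the 10 was 1.02.

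**Figure D1:**
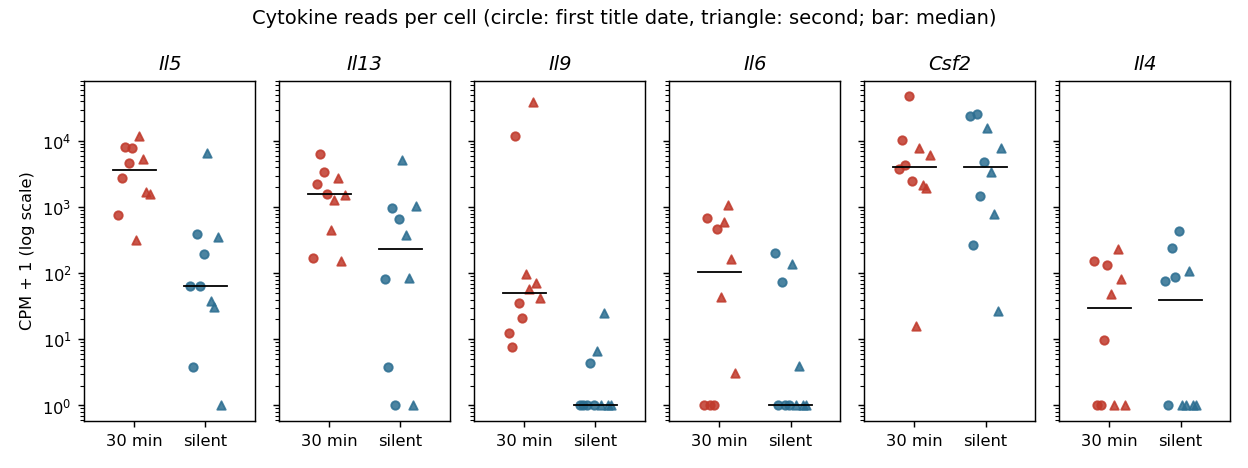
CPM plus 1 of each cytokine gene, on a log axis, in the 10 cells at 30 min (red) and the 10 silent cells (blue) of the IL-5 index; circles are cells of the first title date, triangles of the second, and the bar is the median. The groups overlap in Il5 through silent cell 6 at 6576 CPM and the lowest 30 min cell at 316 CPM, 2 cells carry the Il9 level at 30 min, and Csf2 has the same median of 4077 CPM in both groups.

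The median log2 ratio of all tested genes was -0.04, and 48.6% lay above 0. Called genes were mostly sparse. The median called-higher gene had reads in 6 of 10 cells at 30 min and 2 silent cells, with a level of 152 CPM at 30 min, and 5 called-higher genes reached 1000 CPM there. The median called-lower gene had reads in 6 silent cells and 2 cells at 30 min, with 122 CPM in silent cells, and none reached 1000 CPM. Without silent cell 6, 151 genes were called higher, 119 of them among the 129, and 82 lower, 69 of them among the 89.

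In no gene of the 2702 (0 in either direction) did every 30 min cell lie beyond every silent cell. On leaving out 1 cell, 1 gene at a time met that condition, all in the higher direction. It was Pdzk1ip1 without 30 min cell 1, Rel without silent cell 1, Irf8 without silent cell 6, and Il9 without silent cell 9. A measure added after the data were seen was the share of the 100 pairs of 1 cell of each group in which the 30 min cell was higher, with a tie counted as 50% of a pair. It was at least 90% for 19 genes (0.703% of those tested) and at most 10% for 3 genes (0.111%).

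**Figure D2:**
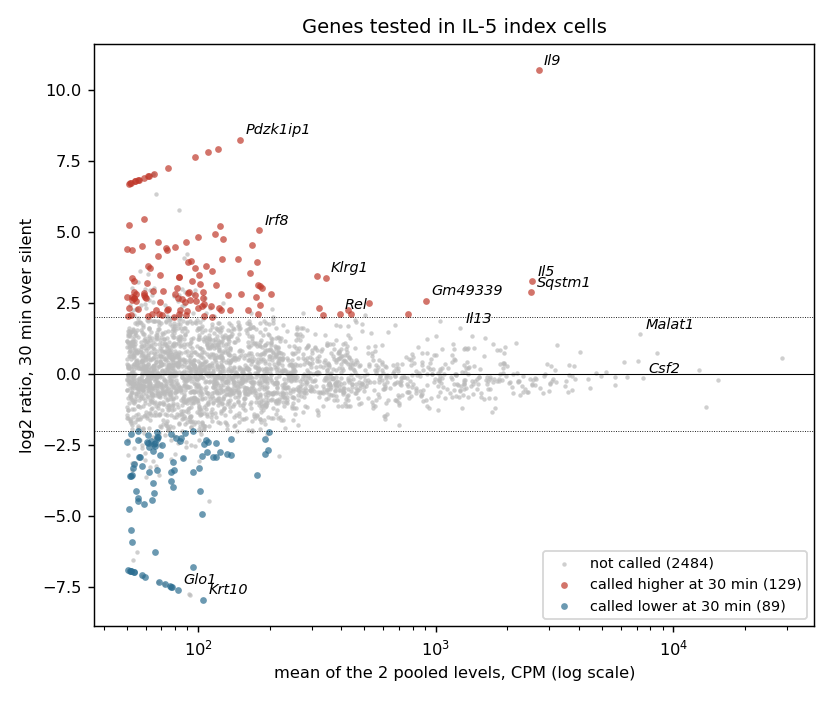
Log2 ratio of 30 min over silent against the mean of both pooled levels (CPM, log axis) for the 2702 genes tested; red points are the 129 genes called higher, blue the 89 called lower, grey the rest, and dotted lines mark the log2 limits of 2 and -2. The straight rows of points at the upper and lower edge are genes with 0 reads in one group, set to the floor of 3 reads; Il9, Il5 and Sqstm1 are among the 5 called-higher genes that reach 1000 CPM at 30 min.

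Sqstm1, Rel, Irf8 and the receptor genes Klrg1 and Gm49339 all had pair shares above 90%. Sqstm1, which encodes the autophagy receptor and signalling scaffold p62, was the most abundant of them. All 10 cells at 30 min held it, at 1103 to 9751 CPM with a median of 4830 CPM. In silent cells it ran from 0 to 1899 CPM with a median of 690 CPM. The groups overlapped in few cells, and the 30 min cell was higher in 95% of pairs. Its log2 ratio was 2.88 (2.81 to 2.95), with 3.50 and 2.42 on the dates.

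Rel, encoding the NF-kB subunit c-Rel, was at 321 to 1276 CPM in the cells at 30 min (median 574) and at 0 to 475 CPM in silent cells (median 88.7). Every 30 min cell was above every silent cell but cell 1, and the pair share was 97%. Its log2 ratio was 2.11 (1.96 to 2.26), with 1.37 and 3.22 on the dates. Traf1, an adaptor of TNF receptors whose gene is a known NF-kB target, had the same log2 ratio of 2.11 (1.97 to 2.25) with 173 to 1338 CPM at 30 min and 0 to 492 CPM in silent cells. Ikbke, a kinase related to the IkB kinases, had a larger log2 ratio of 2.29 (1.88 to 2.72) but was not called, with reads in 5 cells against 2, 0.77 on the second date, 1.64 without 30 min cell 2 and 4.15 without silent cell 9. Nfkb1 stood at 0.67, Nfkbia, the inhibitor of NF-kB, at 0.38, Nfkbiz at 0.86 and Relb at -0.22. Of 28 genes of the pathway list, 15 were tested, 2 (Rel and Traf1) were called higher (beside 4.77% of all genes tested) and none lower, 13 lay above 0 (beside 48.6%), and the median log2 ratio was 0.67.

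Irf8, a transcription factor of the interferon regulatory family, was nearly absent from silent cells. It had reads in 10 of 10 cells at 30 min, from 3.01 to 932 CPM with a median of 265 CPM, and in silent cell 6 alone among the silent cells. Cells 4 and 6 at 30 min held 1 read each. Its log2 ratio was 5.07 (4.57 to 5.62). Without silent cell 6 no silent read remained (0 reads), and the level at 30 min was then 338-fold higher against a floor of 3 reads over the group. Egr2, a zinc finger factor induced early after receptor signals, had reads in 7 cells at 30 min and in 1 silent cell, with a log2 ratio of 2.92 (2.50 to 3.37), and 6.83 without that silent cell 5. Of 29 genes of AP-1 and other immediate-early or inducible transcription factors, 13 were tested, 2 (Irf8 and Egr2) were called higher (beside 4.77% of all genes tested), 12 lay above 0 (beside 48.6%), and the median log2 ratio was 0.85. Nr4a1 had 1.58 and Jun 1.76, both under the limit of a call. Leaving out 1 cell moved Nr4a1 from 0.68 (without 30 min cell 4) to 2.49 (without silent cell 1) and Jun from 1.00 (without 30 min cell 8) to 2.96 (without silent cell 6, which held 394 CPM).

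Klrg1 encodes an inhibitory receptor for cadherins that is also a marker of mature ILC2s. Its reads were in 9 of 10 cells at 30 min, up to 1145 CPM with a median of 632 CPM, and in 3 silent cells, up to 375 CPM. Only cell 5 at 30 min had none. The log2 ratio was 3.39 (3.18 to 3.62), and 4.61 without silent cell 4. Gm49339 is a gene model on chromosome 10 (51480612 to 51496613, + strand, GRCm38) that spans the neighbouring genes Lilr4b and Lilrb4a, which encode paired immunoglobulin-like receptors, and the counts do not separate them. It had reads in all 20 cells, at 388 to 3337 CPM at 30 min and 8.36 to 587 CPM in silent cells, with a log2 ratio of 2.58 (2.47 to 2.69) and a pair share of 95%. Il2ra was higher without passing the limit, with 871 to 3171 CPM against 112 to 2772 CPM and a log2 ratio of 1.35 (1.28 to 1.42). Cd69, an early activation antigen, was called higher at 2.25 (1.99 to 2.52), on 5 cells with reads at 30 min and 6 silent cells, so its ratio came from level rather than from the number of cells, and it was 1.49 without 30 min cell 11. Of 30 checkpoint and costimulation genes, 29 had an identifier in the counts and 9 were tested. Of these, 2 (Klrg1 and Cd69) were called higher (beside 4.77% of all genes tested), and the median log2 ratio was 1.38.

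A further list held genes described in the study as transient for the IL-13 index, which rests on other cells. Of its 15 members, 14 had an identifier in the counts. The other, Lilrb4a, lies in the span of Gm49339, which was called higher at 2.58. In the list, 11 members were tested, 3 (Rel, Klrg1 and Egr2) were called higher (beside 4.77% of all genes tested) and none lower. The median log2 ratio of the list was 0.86. Its other tested members ranged from Bcl3 at 1.95, or 4.04 without silent cell 11, to Mir155hg at -1.20.

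**Figure D3:**
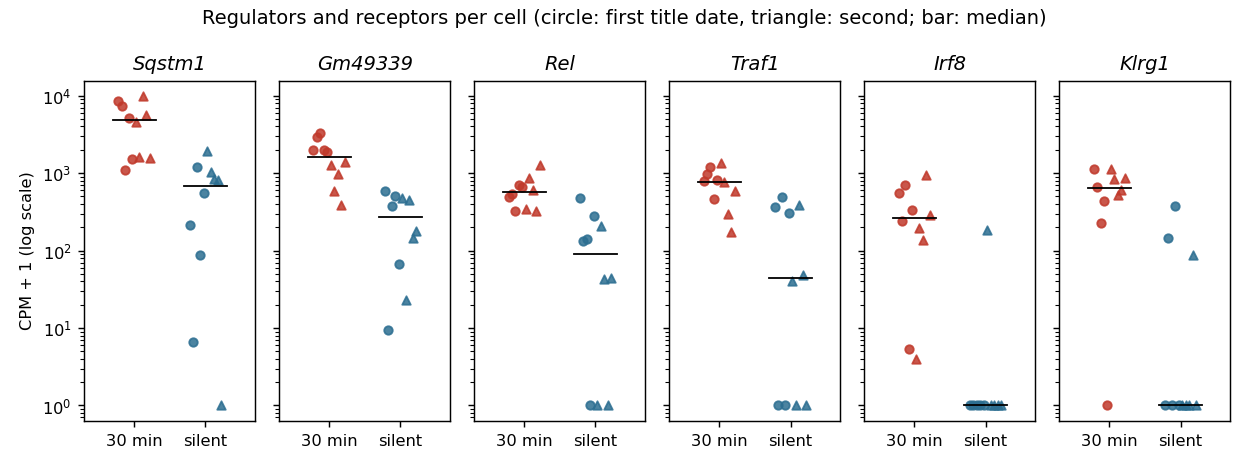
CPM plus 1 (log axis) of 6 regulator and receptor genes in each cell, with the colours and symbols of the cytokine plot and the median as a bar. For Sqstm1 and Gm49339 all 10 cells at 30 min hold reads at 388 CPM or more, and for Irf8 silent cell 6 is the only silent cell above 0.

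Survival genes lay on both sides of 0. Bcl2l11, encoding the death-promoting protein Bim, was called higher at 4.05 (3.61 to 4.52), but 61.1% of its 30 min reads lay in cell 6, and reads were found in 6 cells against 1. Leaving out 1 cell moved it from 2.83 (without 30 min cell 6) to 7.76 (without silent cell 1). Of 14 survival and stress genes tested, Sqstm1 and Bcl2l11 were called higher (beside 4.77% of all genes tested), 7 lay above 0 (beside 48.6%), and the median log2 ratio was 0.05. The antiapoptotic genes Bcl2, Bcl2l1 and Mcl1 had log2 ratios of -0.51, -0.64 and -0.58, whereas Bcl2a1b, of the same group, stood at 2.26. Bcl2a1b was not called, with reads in 4 cells against 2, -0.37 on the second date, 1.37 without 30 min cell 3 and 4.09 without silent cell 2.

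The remaining genes with a pair share of at least 90% are of mixed function. Kdm2b, a histone demethylase and partner of Polycomb, had a log2 ratio of 3.45 (3.22 to 3.69), with 135 to 1265 CPM in all 10 cells at 30 min and up to 365 CPM in 5 silent cells. Without silent cell 6 its log2 ratio was 4.08. Pdzk1ip1, a small membrane protein, had 1063 reads in 9 cells at 30 min and 0 in silent cells, which is at least 306-fold higher, with 59.7% of the reads in cell 5, without which the log2 bound was 7.13. Trim27, a ubiquitin ligase, and Sytl3, a synaptotagmin-like protein of vesicle traffic, also had 0 silent reads. Against the same floor they were 225-fold and 198-fold higher, each in 8 of 10 cells. Rnaseh2c, a subunit of RNase H2, stood at 3.93 (8.24 without silent cell 9), Fam133b at 4.06 (8.03 without silent cell 10) and Sp110, a nuclear body protein, at 3.11 (4.50 without silent cell 4). Utp23 and Rrp1, which act in ribosomal RNA processing, had 4.92 and 3.18. Utp23 was at 3.81 without 30 min cell 6 and 7.70 without silent cell 1, and Rrp1 reached 4.01 without silent cell 9. The adaptor gene Grb2 had the smallest ratio of the 19, at 1.54, and was not called (2.76 without silent cell 3). Pecam1, an adhesion molecule of endothelium and leukocytes that was on the stromal marker list, had reads in 10 cells against 4, with a log2 ratio of 3.98 (3.48 to 4.52) and 60.5% of its 30 min reads in cell 11, without which it was 2.84, and 5.59 without silent cell 11. The other 9 stromal markers had 0 reads in both groups.

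Further genes among the largest ratios with reads in at least 70% of the 30 min cells were Acbd6 (5.21), BC005561 (4.74), Sec24c, a coat protein of transport from the endoplasmic reticulum (4.64), Mknk2, a kinase of the initiation factor eIF4E (4.50), Gm42428 (4.48) and Actn4, an actin crosslinker (3.61). Each was detected in 7 or 8 cells at 30 min and in 1 to 3 silent cells. Their ratios were moved by over 1.5-fold by single cells: Acbd6 was at 7.81 without silent cell 3, BC005561 at 3.80 without 30 min cell 11 and 7.78 without silent cell 5, Sec24c at 5.63 without silent cell 8, Mknk2 at 3.81 without 30 min cell 1 and 5.92 without silent cell 9, Gm42428 at 3.81 without 30 min cell 6 and 5.76 without silent cell 10, and Actn4 at 4.73 without silent cell 4. In the sterol list, Hmgcs1, an early enzyme of cholesterol synthesis, was called higher at 3.56 (3.23 to 3.91) and Fdft1, squalene synthase, at 2.43 (2.20 to 2.67), or 3.14 without silent cell 8. They were the 2 calls among 10 tested members (beside 4.77% of all genes tested), 9 of which lay above 0 (beside 48.6%), and the median log2 ratio was 0.80. Cell 7 held 39.9% of the Hmgcs1 reads and 36.2% of the Fdft1 reads at 30 min, and 31.0% of those of Idi1, so 1 cell held the most reads of all 3.

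The genes called lower that are described next were drawn from those with reads in at least 70% of silent cells. Of the 89, 32 met this. Several had few or no reads at 30 min. Glo1, the glyoxalase that removes methylglyoxal, had 0 reads in the 10 cells at 30 min and 504 reads in 8 silent cells, with a silent median of 167 CPM and a highest of 504 CPM. With 0 set to the floor of 3 reads, it was 195-fold lower at 30 min. Krt10, a keratin, and Tmem238 also had 0 reads at 30 min and were seen in 7 silent cells each. Against the same floor they were 249-fold and 182-fold lower. Without silent cell 5 the Tmem238 log2 ratio against the floor was -6.86. Tmem154 had 6 reads in 1 cell at 30 min and 580 reads in 7 silent cells (log2 ratio -6.81, interval -8.26 to -5.68, and -7.67 without that 30 min cell 3). Further genes had reads in 1 or 2 cells at 30 min and in 7 or 8 silent cells. They included Slc48a1, a heme transporter (-3.39), Ddt (-3.34), the RNA-binding protein gene Pum2 (-3.18), Rpf1 (-3.11), Elovl1, a fatty acid elongase (-2.96), Mrpl58 (-2.93) and Nqo1, a quinone reductase (-2.93). Each rests on its 1 or 2 cells at 30 min. Without 30 min cell 5, Slc48a1 was at -7.23, Ddt at -6.65 and Rpf1 at -4.13. Without cell 8, Pum2 was at -6.68 and Elovl1 at -7.34, without cell 7 Mrpl58 was at -7.79, and without cell 2 Nqo1 was at -7.78. Leaving out silent cells brought Pum2 to -2.54 (cell 2) and -2.56 (cell 6), Slc48a1 to -2.79 (cell 8), Mrpl58 to -2.33 (cell 1) and Nqo1 to -2.30 (cell 4).

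The 3 genes with a pair share of at most 10% were Glo1, Bola2 and Rps2. Rps2, a ribosomal protein, had reads in all 20 cells, at 536 to 1838 CPM at 30 min and 1275 to 3799 CPM in silent cells, and its log2 ratio of -1.21 (-1.26 to -1.15) was under the limit of a call. Bola2, which acts in iron-sulfur protein maturation, stood at 311 CPM against 1082 CPM, a log2 ratio of -1.80 (-1.90 to -1.70), in 8 and 10 cells. Of 81 ribosomal protein genes tested, a list added after the data were seen, none was called (beside 8.07% of all genes in either direction), 7 lay above 0 (beside 48.6%), and the median log2 ratio was -0.33. Their summed level was 155705 CPM at 30 min and 191778 CPM in silent cells, with cells at 101005 to 178503 CPM and 105846 to 213503 CPM. The silent median of 193745 CPM lay above the highest 30 min cell. Library composition also differed, with a median of 60.6% of alignments in genes and 7.09% in no feature at 30 min, against 64.6% and 5.11% in silent cells, and its part in these levels and in those of nuclear RNAs was not tested.

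Glycolysis, respiratory chain and mitochondrial ribosome genes had medians below 0. Of 12 glycolysis genes, Gpi1 was called lower (beside 3.29% of all genes tested) at -2.90 (-3.24 to -2.57), with reads in cell 3 alone at 30 min, without which it was -7.62, and in 7 silent cells, 1 lay above 0 (beside 48.6% of all genes), and the median log2 ratio was -0.71. Gapdh stood at -1.08 (-1.18 to -0.98). Nuclear genes of the respiratory chain, another added list, had 76 tested members, none called, and a median of -0.31. Of 56 mitochondrial ribosomal protein genes, also added, Mrpl16 was called higher (2.81, and 5.06 without silent cell 4) and Mrpl52 (-2.70, and -3.87 without 30 min cell 6) and Mrpl58 lower, with a median of -0.30. Among all genes tested, 4.77% were called higher and 3.29% lower. Secretory pathway and unfolded protein response genes had 27 tested members, of which Pdia4 was called lower (-2.36, and -3.41 without 30 min cell 7) and 6 lay above 0, with a median of -0.43, beside 3.29% called lower and 48.6% above 0 among all genes. Chaperones had a median of -0.45 over 21 members and proteasome genes -0.30 over 33, with none called in either list.

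The lists of receptors (median 0.55 over 14 tested), lineage transcription factors (0.71 over 6), JAK-STAT feedback (0.24 over 11), growth and cell cycle (0.33 over 9), quiescence (-0.04 over 9), translation factors (-0.22 over 27), actin (0.33 over 25), antigen presentation (-0.21 over 9), chemokines (-3.45 over 2) and the mitochondrial genome (-0.22 over 6, added later) held no called gene. The 2 chemokines were Ccl1 at 0.85, with 0.05 without 30 min cell 11 and 1.55 without silent cell 5, and Cxcl2, with 0 reads at 30 min and 561 reads in 3 silent cells, 91.8% of them in cell 1. Dusp5 was the only call among 4 MAP kinase feedback genes (2.04), Pla2g12a among 5 lipid mediator and Tph1 genes (2.30), and Rrp1 and Rrp12 (-2.71) went opposite ways among 24 ribosome biogenesis genes, beside 4.77% called higher and 3.29% called lower among all genes. Leaving out 1 cell moved Dusp5 from 1.22 (without 30 min cell 9) to 4.34 (without silent cell 9), Pla2g12a from 1.68 (without 30 min cell 3) to 2.92 (without silent cell 4) and Rrp12 from -6.96 (without 30 min cell 4) to -1.37 (without silent cell 2). Of the nuclear noncoding RNAs, Kcnq1ot1 was called higher at 2.38, with 1.50 without 30 min cell 4 and 3.40 without silent cell 5. Malat1, the most abundant of them, stood at 6905 to 18779 CPM in the cells at 30 min and 897 to 10285 CPM in silent cells, a log2 ratio of 1.40 (1.37 to 1.42) under the limit, with a pair share of 88%. The ILC2 marker list had Klrg1 as its only call (beside 4.77% of all genes called higher) and a median of 1.02 over 12 genes, with Rora at 1.32, Gata3 at 0.93 and Id2 at -0.76. Its lowest member was Il7r, the alpha chain of the IL-7 receptor, at 26.2 CPM in 2 cells at 30 min and 111 CPM in 4 silent cells. The Il7r log2 ratio of -2.08 was not called, as it was -0.89 without silent cell 9, and it was -6.84 without 30 min cell 11.

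**Figure D4:**
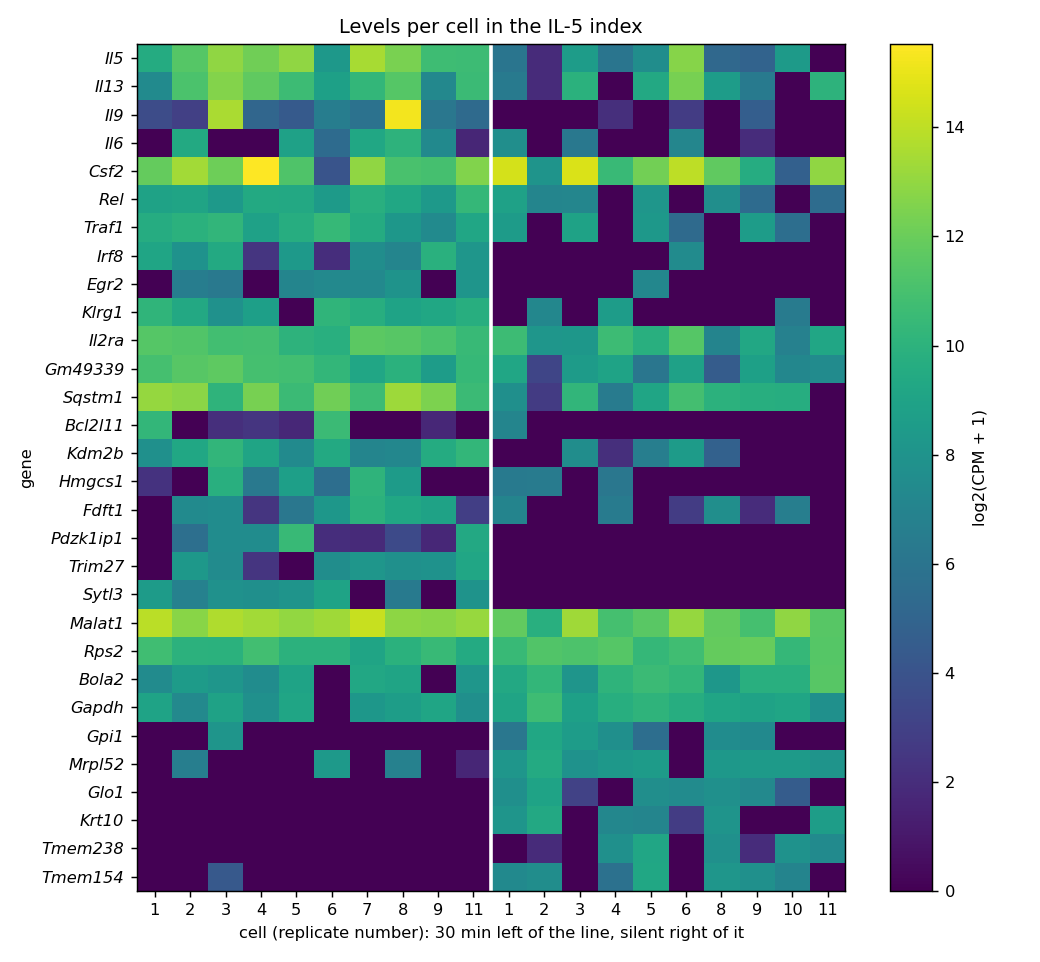
log2(CPM + 1) of 30 genes (rows) in the 20 cells (columns, by replicate number), with the 10 cells at 30 min left of the white line and the 10 silent cells right of it. Most genes from Il5 down to Malat1, but not Csf2, are brighter on the left, silent cell 6 is the silent column with the highest Il5 and Il13, and Glo1, Krt10 and Tmem238 have 0 reads in all cells on the left.

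The levels of these genes in other IL-5 index groups give the setting. At 60 min (10 cells) and 90 min (11 cells) after onset, Rel stood at 356 CPM and 247 CPM, Irf8 at 115 CPM and 97.9 CPM, Sqstm1 at 1950 CPM and 3360 CPM, and Kdm2b at 195 CPM and 390 CPM, each below its 30 min level. Cells before stimulation (5 cells, first date only) had 0 reads of Il5, Rel, Irf8, Il9 and Pdzk1ip1, for which 3 reads, the limit taken for a count of 0, equal 2.47 CPM. Activated cells (11 cells), which were secreting at the fixed late time, held Rel at 113 CPM (103 to 125), Sqstm1 at 245 CPM (230.0 to 262), Irf8 at 1.34 CPM (0.435 to 3.13) and Kdm2b at 1.61 CPM (0.590 to 3.50). These intervals lie below those of the 30 min cells, which were 613 to 665 CPM for Rel, 4363 to 4502 CPM for Sqstm1, 332 to 371 CPM for Irf8 and 556 to 606 CPM for Kdm2b. Both sets of intervals cover counting error only and not the spread of cells. Klrg1 and Malat1 followed another order, with 714 CPM and 13088 CPM before stimulation, 628 CPM and 10504 CPM at 30 min, and 104 CPM and 2535 CPM in activated cells. Silent cells held 59.7 CPM and 3993 CPM of these 2 genes. Pdzk1ip1 and Il9 were higher in activated cells (1592 CPM and 60451 CPM) than at 30 min, Il9 from a median of 580 CPM and a highest cell of 229067 CPM. Glo1 was at 120 CPM before stimulation, in 2 of 5 cells, and at 137 CPM in activated cells, in 10 of 11.

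**Figure D5:**
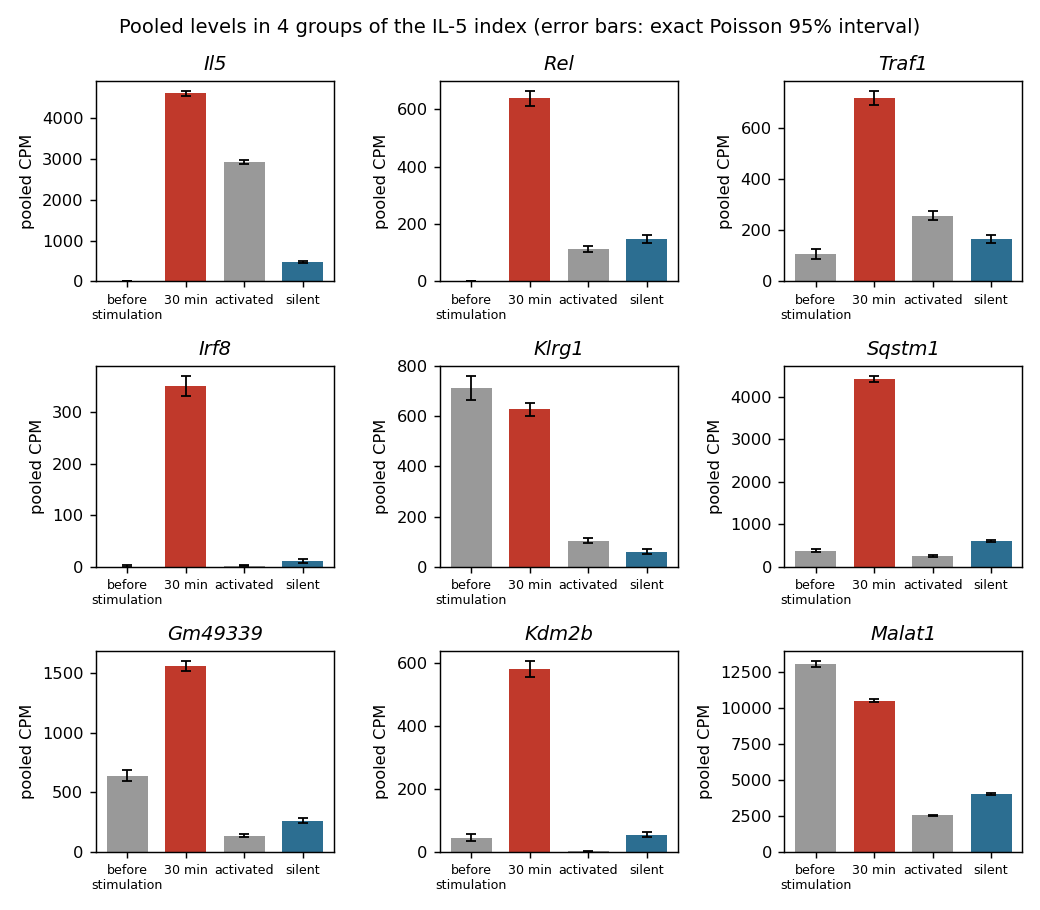
Pooled CPM of 9 genes before stimulation (5 cells), at 30 min (10 cells, red), in activated cells (11 cells) and in silent cells (10 cells, blue) of the IL-5 index; bars start at 0 and error bars are exact Poisson 95% intervals, which cover counting error only. Among these 4 groups, Rel, Irf8, Sqstm1, Traf1 and Kdm2b are highest at 30 min and Klrg1 and Malat1 before stimulation; the 60 and 90 min groups are not drawn.

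The same contrast exists in cells chosen by IL-13 secretion, which are other cells, 30 min and silent, of the same series. There, 2806 genes were tested, with 6.49% called higher and 7.59% called lower, and 2085 were tested in both indexes. Of the 77 genes called higher here and tested in both, 16 were called higher in the IL-13 index (20.8%, against 6.00% of all genes tested in both) and 3 were called lower (3.90%, against 5.85%). Of the 46, 8 were called lower there (17.4%, against 5.85%) and 1 higher (2.17%, against 6.00%). The 77 had a median log2 ratio of 0.82 in the IL-13 index and the 46 a median of -0.68, beside -0.18 for all genes tested in both. Of the 77, 62.3% lay above 0, and of the 46, 21.7%, against 44.0% of all. The 16 shared genes include Il5 (2.68 in the IL-13 index), Il6 (6.49), Rel (3.61), Klrg1 (2.03), Egr2 (2.07), Sqstm1 (3.84), Bcl2l11 (3.70), Kdm2b (3.78) and Gm49339 (3.24), and the 8 shared lower genes include Glo1 (-3.59) and Tmem154 (-2.27). Traf1 stood at 1.64 there, with no call. Other genes did not carry over. Pdzk1ip1 had 0 reads at 30 min in the IL-13 index, Sp110 stood at 0.05, Rnaseh2c at -0.25, Pecam1 at -1.07, and Kcnq1ot1 was called lower at -2.59. Whether the 2 indexes differ in these genes was not tested.

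Promoter letters were compared for the called genes. RefSeq gave a 300-base window, from 250 bases before to 50 after the start, for 100 of the 129 genes called higher and 68 of the 89 called lower. An NF-kB match occurred in 7.2% of the 125 windows of genes called higher, 4.30% of the 93 of genes called lower, 5.13% of the windows of all genes tested and 4.26% of all windows in the table. An AP-1 match occurred in 7.2%, 8.60%, 5.02% and 7.81%, and a CRE match in 4.00%, 1.08%, 3.86% and 1.79%, in the same order. The counts behind the shares are small, with 9, 9 and 5 windows of genes called higher, and no window of the 19 genes with the highest pair shares held an NF-kB or CRE match (0 of 21).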

How the data were processed

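The authors deposited unnormalized read counts, 1 file per cell, made by aligning read 1 of 3' libraries (SMART-Seq v4 3' DE) with TopHat2 to mm10 (submitters' processing notes, which also name a human build) and counting with HTSeq. The annotation release and strand setting are not given in the sources used here, so genes overlapping on opposite strands cannot be separated. Each file holds 46078 identifiers and 5 summary entries, which were left out of all totals. Of all tallied alignments in the 20 cells, 61.8% lay in genes, 29.4% were not unique, 6.72% lay in no feature and 2.05% were ambiguous. GENCODE M21 (GRCm38) gave a symbol for 45229 identifiers, while 849 had none and took 0.0890% of reads. No spike-in reads were used, so levels are relative to a cell's gene reads.

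Groups came from the source names in the labels. Reads were summed per group and scaled to 1000000 gene reads. For ratios, a group under 3 reads was set to 3 reads over the group. Exact binomial and Poisson 95% intervals were computed. No count model was fitted, since a state is a single sample. The genes named were fixed cytokines, up to 15 called genes per direction with the largest ratios and reads in at least 70% of the cells of the higher group, up to 20 genes per direction whose cells do not overlap, and up to 4 genes of each list by size of the ratio. Genes with a pair share of at least 90% or at most 10%, and 4 lists (ribosomal proteins, respiratory chain, mitochondrial ribosome and mitochondrial genome), were added after the data were seen. Members and lists were chosen with earlier results of these data known. No 2 cells of the series had identical counts. The code of the measure was checked on counts simulated with set changes, and no result above rests on that check. Alternatives were other scalings (edgeR 4.0.16, DESeq2 1.42.0), the mean of the cells' own CPM, read minimums, thinning, CPM minimums, log2 limits, single dates and leaving out each cell. Python 3.11.15 with numpy, pandas and scipy was used.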

Additional observations from a re-analysis of the deposited data

Results flagged for a closer look

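Of 53 sets of 10 cells looked at (25 genes in each group, leaving out sets with no read in any cell, and depth, genes detected and mitochondrial share), 6 had 1 cell whose gap to its neighbour was large against the whole range on the log2(CPM + 1) scale. Chance gives about 1 in 20 for continuous values, a rate that does not hold for genes with reads in 1 cell, where the gap equals the range by construction. Csf2 at 30 min had cell 6 at 15.1 CPM below the next at 1970 CPM (gap over range 0.602). Klrg1 at 30 min had cell 5 at 0, below the next at 229 CPM (0.772). In 4 sets a single cell held all reads of the group (gap over range 1 in each): Irf8 in silent cell 6 (183 CPM), Egr2 in silent cell 5 (142 CPM), Bcl2l11 in silent cell 1 (133 CPM) and Gpi1 in 30 min cell 3 (276 CPM).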

How the results depend on the processing

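The counts of called genes moved with the CPM minimum, the fold limit and the measure of a call. With a minimum of 10 CPM, 434 genes were called higher and 430 lower, with none, 500 and 545, and with 200 CPM, 14 and 0. With a log2 limit of 1, 196 genes were called higher, and with a limit of 3, 62 higher and 45 lower. By the pair share, chosen after the data were seen, the counts were 19 and 3. Leaving out any 1 cell gave 118 to 151 genes higher and 82 to 110 lower. Scaling factors, all cells, a minimum of 100000 gene reads, thinning and the mean of the cells' own CPM kept the counts within 1.5 times. TMM and DESeq2 factors shifted all log2 ratios by 0.01 and 0.02. The count of genes whose cells do not overlap stayed at 0 in the lower direction under every alternative run for it, and was 0 to 1 in the higher direction on leaving out 1 cell. The Il5 log2 ratio was 2.54 from the averaged CPM of single cells, 2.52 with thinned cells, 5.30 and 2.23 on the dates, and 5.78 as a difference of medians of log2(CPM + 1), also added later. On leaving out 1 cell it ran from 2.95 to 5.36, the highest without silent cell 6. Of 53 other called genes named by the rule, whose sign on each date and without any 1 cell the rule fixes, 44 and 43 left their counting interval on the single dates, 16 with thinned cells and 5 with averaged CPM. No paired analysis was possible because each state is a single sample, which leaves no spread for a block, and no source says that title numbers shared by cells of a date link those cells. Ratios within each date stand beside the results. Reads in few cells limit the sparse genes, as the level of 1 read was about 3.02 CPM in the median cell.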
